A study of Homo sapiens with 9 samples.

Results

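The guanylate-binding proteins GBP1, GBP2, GBP3, GBP4 and GBP5 and the apolipoprotein L genes APOL1, APOL2, APOL3, APOL4 and APOL6 were followed across 9 RNA-seq libraries of A549, an established human lung adenocarcinoma cell line. These 10 genes, 10 of the 58735 in the count table, were taken by symbol, and each symbol matched 1 gene. All cells had been transfected with jetPRIME, a transfection reagent, and none were left untransfected. In the control group (PC3, 3 libraries) the cells received a control plasmid, in the LINC00996 group (L996, 3 libraries) a plasmid overexpressing the long non-coding RNA LINC00996, and in the AP001189.3 group (RP11, 3 libraries) a plasmid overexpressing the long non-coding RNA AP001189.3. Each control library has its own treatment label (PC3.1, PC3.2 or PC3.3), whereas the study's own text names PC3.1 as the control. The study had the overexpression plasmids custom-made. Whether the control plasmid shares their backbone, preparation and dose is not given in the sources used here. The overexpressed RNA and other differences between the plasmids therefore cannot be told apart. The time from transfection to RNA extraction is not given in the sources used here. The study reports triplicate extraction and analysis for the LINC00996 and control groups, and its supplement describes a test for conditions with biological replicates. Neither says whether the replicates were separate cultures. The p-values below therefore measure the spread between these libraries, which may be technical.

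The guanylate-binding proteins are large GTPases of the dynamin superfamily that interferon, above all interferon gamma, induces strongly. GBP1 assembles on the surface of cytosolic bacteria and helps to bring in the other family members and caspase-4, which starts an inflammatory form of cell death, whereas GBP2 and GBP5 are held at membranes by a lipid tail and reduce the activity of viral envelope proteins. The apolipoprotein L proteins are lipid-binding proteins: APOL1 carries a signal for secretion and is the trypanosome-killing factor of human serum, and the others act inside the cell, where APOL3 can break bacterial membranes. Genes of both families are known targets of interferon and of inflammatory cytokines.

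The 5 GBP genes lie in a cluster on chromosome 1, over 266 kb of build GRCh38, all on the minus strand. From low to high coordinate they are GBP3 (chr1:89006666-89022894), GBP1 (chr1:89052319-89065360), GBP2 (chr1:89106132-89150456), GBP4 (chr1:89181148-89198932) and GBP5 (chr1:89258950-89272804). The APOL genes lie on chromosome 22, over 619 kb. They are APOL6 (chr22:35648395-35668409, plus strand), APOL3 (chr22:36140330-36166177, minus strand), APOL4 (chr22:36189124-36204840, minus strand), APOL2 (chr22:36226203-36239954, minus strand) and APOL1 (chr22:36253010-36267530, plus strand). All 10 are annotated as protein coding, and each count sums the reads over a gene's exons.

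Promoters are shown for GBP1, GBP3 and GBP4, the 3 of the 10 genes that were matched in the RefSeq promoter table, as members of a family whose genes moved together in the comparisons that follow. Each is the RefSeq sequence on GRCh38.p14, from 250 bases before the start to 50 bases after, read along the gene, with base 251 as the start. The windows are chr1:89065159-89065458 for GBP1, chr1:89022817-89023116 for GBP3 and chr1:89198893-89199192 for GBP4, all on the minus strand. Capitals mark matches, on either strand, to 3 letter patterns: the core of the interferon-stimulated response element (GAAANNGAA), the gamma-activated site bound by STAT proteins (TTCNNNGAA) and the core of the NF-kappa B site (GGGNNTTTC).

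GBP1: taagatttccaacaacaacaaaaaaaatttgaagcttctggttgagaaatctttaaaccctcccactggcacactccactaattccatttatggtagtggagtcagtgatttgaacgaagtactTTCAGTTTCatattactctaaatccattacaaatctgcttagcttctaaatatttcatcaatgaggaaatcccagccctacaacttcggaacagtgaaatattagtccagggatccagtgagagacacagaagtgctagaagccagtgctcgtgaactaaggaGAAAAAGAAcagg

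GBP3: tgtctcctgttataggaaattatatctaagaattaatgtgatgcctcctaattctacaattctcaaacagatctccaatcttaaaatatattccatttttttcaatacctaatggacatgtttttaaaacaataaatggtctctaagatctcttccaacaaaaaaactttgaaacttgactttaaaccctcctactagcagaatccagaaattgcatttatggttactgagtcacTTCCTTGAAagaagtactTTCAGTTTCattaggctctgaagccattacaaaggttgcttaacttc

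GBP4: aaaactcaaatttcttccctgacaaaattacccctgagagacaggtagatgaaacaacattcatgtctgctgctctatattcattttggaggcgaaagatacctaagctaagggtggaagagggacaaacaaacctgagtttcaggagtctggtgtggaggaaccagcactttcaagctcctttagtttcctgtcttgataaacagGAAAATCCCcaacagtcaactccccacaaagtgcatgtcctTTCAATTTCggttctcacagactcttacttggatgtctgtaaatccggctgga

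The interferon-stimulated response element core was found in all 3 windows, against 8.11% of 35116 RefSeq promoters of the same length. GBP1 held it at bases 125 to 133 (TTCAGTTTC, on the opposite strand) and again at bases 288 to 296 (GAAAAAGAA), GBP3 at bases 254 to 262 (TTCAGTTTC) and GBP4 at bases 248 to 256 (TTCAATTTC). The gamma-activated site was matched in GBP3 alone of the 3, at bases 236 to 244 (TTCCTTGAA), and in 7.66% of all promoters. The NF-kappa B core was matched in GBP4 alone of the 3, at bases 207 to 215 (GAAAATCCC), and in 4.78% of all promoters. No 2 of the 6 matches overlapped, and a match describes letters in the window, not binding.

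The libraries held 15272450 to 18125447 counts each. LINC00996 had 4 to 9 counts in the control libraries, 4373 to 5952 with LINC00996 and 7 to 8 with AP001189.3, and AP001189.3 had 0 to 2, 0 and 1660 to 2378 counts in the same groups. Replicate 1 of the LINC00996 group stood apart from its group: the chi-square statistic per gene was 20.1 and 29.7 between it and the other 2, and 2.21 to 6.70 between every other pair of replicates of 1 group. The counts of members and genes called are therefore also given without it, while levels, sums, lists and neighbours are not. The cells carried A549 epithelial markers, all 8 of which were expressed, while PTPRC, MS4A1, LYZ and TYROBP, among the 8 leukocyte markers, had 3 counts or fewer in every library. CD14 of the same list was expressed at 10.4, 12.4 and 10.4 CPM on average in the control, LINC00996 and AP001189.3 groups, while CD68 had at most 10 counts and CD3E at most 4 in any library. In these bulk samples, fewer cells of a type and less RNA per cell cannot be told apart.

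In the control cells, 9 of the 10 genes were expressed, and APOL1 stood far above the others. Per gene length, in fragments per kilobase and per 1000000 fragments (FPKM), APOL1 reached 148 ± 6.28 (SD, n = 3), a level above 99.4% of the 29332 genes with a value in the control group. It was followed by APOL2 (46.4 ± 3.11 FPKM), GBP1 (32.0 ± 0.543 FPKM), GBP3 (26.8 ± 0.350 FPKM), APOL6 (19.7 ± 0.283 FPKM), GBP4 (17.3 ± 0.583 FPKM) and GBP2 (11.2 ± 0.590 FPKM). APOL3 (3.32 ± 0.280 FPKM) and GBP5 (1.60 ± 0.245 FPKM) were expressed at a low level, and no neighbours in this order overlapped between their control libraries. APOL4 was at the floor, with 0, 2 and 2 counts in the control libraries, 1, 4 and 0 in the LINC00996 libraries and 1, 2 and 2 in the AP001189.3 libraries. It did not pass the filter on low counts in any comparison and was not tested, so 9 of the 10 genes were tested, and a difference in APOL4 was not detectable at this depth.

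The first question was how the 2 families differed between the LINC00996 and control groups of A549 cells. All 5 GBP genes and all 4 tested APOL genes were lower in the LINC00996 group, and for none of the 9 did the groups overlap. Over all 16097 genes tested, the groups did not overlap for 3340 genes on the lower side and 3171 on the higher side. Of those 16097 genes, 11.6% were called lower and 10.7% were called higher, with the quasi-likelihood test of edgeR and a Benjamini-Hochberg adjusted p under 0.05. The median log2 fold change was -1.52 over the 9 members and 0.01 over all genes tested. Without replicate 1 of the LINC00996 group, all 9 were again called lower, in a fit that called 5481 genes in either direction in place of 3588.

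GBP1, the member that coats bacteria first, had 164, 159 and 159.8 counts per 1000000 (CPM, with library totals scaled by TMM factors) in the control libraries, 47.2, 53.4 and 63.5 in the LINC00996 libraries and 195, 229 and 229.6 in the AP001189.3 libraries. The LINC00996 libraries were all far below the lowest control, and the AP001189.3 libraries were all above the highest. GBP1 was 2.94-fold lower with LINC00996 than in the control (log2 fold change -1.56, SE 0.11, edgeR adjusted p = 3.79e-06).

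GBP2, a membrane-held member, had 73.9, 71.4 and 66.8 CPM in the control libraries, 29.01, 31.3 and 36.1 CPM with LINC00996 and 97.2, 75.2 and 79.9 CPM with AP001189.3. Its AP001189.3 libraries lay above the control, 2 of them by little. With LINC00996 it was 2.20-fold lower (log2 fold change -1.14, SE 0.11, edgeR adjusted p = 3.18e-05). GBP2 shares 621 exonic bases on the same strand with GBP7, 9.89% of its own, and 8.42% of its 100-base windows occur in GBP7 as well. GBP7 averaged 7.44 counts per library, and how shared reads were assigned is not given in the sources used here, so the GBP2 level is uncertain.

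GBP5, which promotes inflammasome assembly and restrains the processing of viral envelope proteins, was the lowest of the expressed GBP genes. It had 12.9, 11.3 and 15.3 CPM in the control libraries, 3.61, 2.73 and 3.52 CPM with LINC00996 and 13.9997, 18.9 and 16.1 CPM with AP001189.3. Its fall with LINC00996 was the largest fitted among the members, 3.99-fold (log2 fold change -2.00, SE 0.18, edgeR adjusted p = 1.79e-05). The interval of -2.39 to -1.60 overlapped those of GBP4, APOL3, GBP1 and APOL1. Without LINC00996 replicate 3, GBP4 fell more than GBP5 (-2.12 against -2.05). The AP001189.3 libraries overlapped the control ones.

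GBP4, which lacks the site for a lipid tail, had 107, 103 and 110.4 CPM in the control libraries, 24.5, 24.6 and 36.7 CPM with LINC00996 and 131, 159 and 154 CPM with AP001189.3. The 3 groups did not overlap. With LINC00996 it was 3.73-fold lower (log2 fold change -1.90, SE 0.15, interval -2.22 to -1.58, edgeR adjusted p = 6.06e-06).

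GBP3, also without that site, had 116, 117 and 115 CPM in the control libraries, 45.2, 55.5 and 59.6 CPM with LINC00996 and 132, 139 and 136 CPM with AP001189.3. Its groups were separate as well, with the smallest fitted rise of the called GBP genes in the AP001189.3 group. The interval of that rise, 0.12 to 0.33 on the log2 scale, overlapped that of GBP2 (0.09 to 0.41). Without AP001189.3 replicate 1, GBP2 rose less (0.13 against 0.24). With LINC00996 it was 2.17-fold lower (log2 fold change -1.12, SE 0.11, edgeR adjusted p = 3.67e-05).

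**Figure D1:**
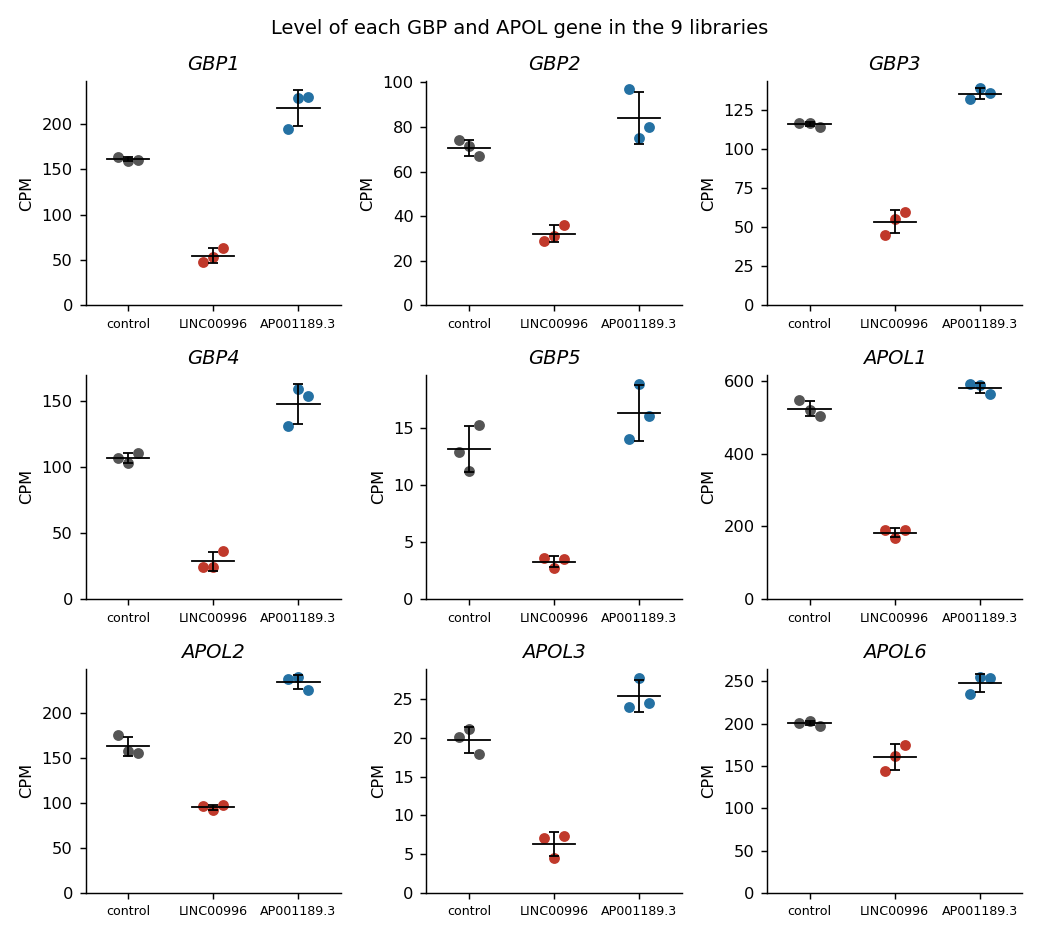
Counts per 1000000 (CPM, vertical axes, from 0) of the 9 expressed GBP and APOL genes in the control, LINC00996 and AP001189.3 libraries. Points are libraries, horizontal lines are group means and bars are 1 SD (n = 3); for all 9 genes the LINC00996 libraries lie below every other library.

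APOL1, the secreted member, was the most abundant gene of the set in every group. It had 547, 521 and 505 CPM in the control libraries, 191, 168 and 189 CPM with LINC00996 and 591, 589 and 565 CPM with AP001189.3. The LINC00996 libraries were far apart from both other groups, which lay close together. APOL1 was 2.87-fold lower with LINC00996 than in the control (log2 fold change -1.52, SE 0.09, edgeR adjusted p = 9.52e-07), the smallest adjusted p of the members.

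APOL3, the membrane-disrupting member, had 20.1, 21.2 and 17.9 CPM in the control libraries, 7.12, 4.50 and 7.36 CPM with LINC00996 and 23.9, 27.8 and 24.5 CPM with AP001189.3. All 3 groups were separate. With LINC00996 it was 3.10-fold lower (log2 fold change -1.63, SE 0.18, edgeR adjusted p = 7.64e-05).

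APOL2, which is found inside the cell, had 175, 158 and 156 CPM in the control libraries, 96.6, 92.3 and 97.6 CPM with LINC00996 and 238, 240.1 and 226 CPM with AP001189.3. Its LINC00996 libraries were tightly grouped below the control. It was 1.71-fold lower with LINC00996 (log2 fold change -0.77, SE 0.09, interval -0.97 to -0.57, edgeR adjusted p = 1.31e-04).

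APOL6, an intracellular member studied for its part in cell death, had 201, 203 and 198 CPM in the control libraries, 144, 162 and 175 CPM with LINC00996 and 236, 256 and 254 CPM with AP001189.3. Its groups were separate, but it fell least of the 9 members with LINC00996, 1.25-fold (log2 fold change -0.32, SE 0.09, interval -0.53 to -0.12, edgeR adjusted p = 0.0287). That interval lies above those of the other 8. The call was lost without control replicate 1, 2 or 3 (adjusted p = 0.107, 0.131 and 0.0932) and without LINC00996 replicate 2 (adjusted p = 0.0904), and with library size in place of TMM (adjusted p = 0.0528).

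The second question was how the same genes differed between the AP001189.3 and control groups. Of the 9 tested members, 8 were called higher and GBP5 was not called, and 0 were called lower. Among all 16023 genes tested, 11.4% were called higher and 8.49% lower. The rises were small, and the median log2 fold change was 0.31 over the members and -0.00 over all genes tested. This comparison shares its control libraries with the one before.

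The largest fitted rise was that of APOL2, 1.44-fold (log2 fold change 0.52, SE 0.05, edgeR adjusted p = 1.26e-07). Its interval of 0.41 to 0.64 overlapped those of other members, such as GBP4 (0.34 to 0.60). Without AP001189.3 replicate 1, GBP4 rose more (0.55 against 0.51 on the log2 scale). GBP4 rose 1.38-fold (0.47 log2, SE 0.06, adjusted p = 9.01e-06) and GBP1 1.35-fold (0.43 log2, SE 0.06, adjusted p = 5.73e-06). APOL3 rose by 0.36 on the log2 scale (SE 0.10, adjusted p = 0.00909) and APOL6 by 0.31 (SE 0.05, adjusted p = 8.66e-05), so the member that fell least with LINC00996 did not rise least here. GBP2 rose by 0.25 (SE 0.08, adjusted p = 0.0277), GBP3 by 0.22 (SE 0.05, adjusted p = 0.00343) and APOL1 by 0.15 (SE 0.05, adjusted p = 0.0287). GBP5 had a log2 fold change of 0.30 (SE 0.13, interval 0.04 to 0.56, adjusted p = 0.0950).

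The calls for the rise depended on the fit. With all 9 libraries in 1 fit, 2 of the 9 members, GBP1 and APOL2, were called higher, and the genes called in all, in either direction, went from 3180 to 437. In the same fit without replicate 1 of the LINC00996 group, an alternative chosen after seeing the data, 8 members were called higher and 3291 genes were called in all. Leaving out 1 of the 6 libraries of this comparison left 6 to 8 members called. APOL1 lost its call in 5 of 6 cases, kept only without control replicate 1, with adjusted p values up to 0.135. GBP2 lost its call without control replicate 2 (adjusted p = 0.0879), control replicate 3 (adjusted p = 0.105) or AP001189.3 replicate 1 (log2 fold change 0.13, adjusted p = 0.213). APOL3 lost its call without AP001189.3 replicate 2 (adjusted p = 0.0821), and GBP5 gained one without control replicate 3 (adjusted p = 0.0248) or AP001189.3 replicate 1 (adjusted p = 0.0429). Its log2 fold change went down to 0.19 without AP001189.3 replicate 2 (adjusted p = 0.432) and to 0.20 without control replicate 2 (adjusted p = 0.371).

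**Figure D2:**
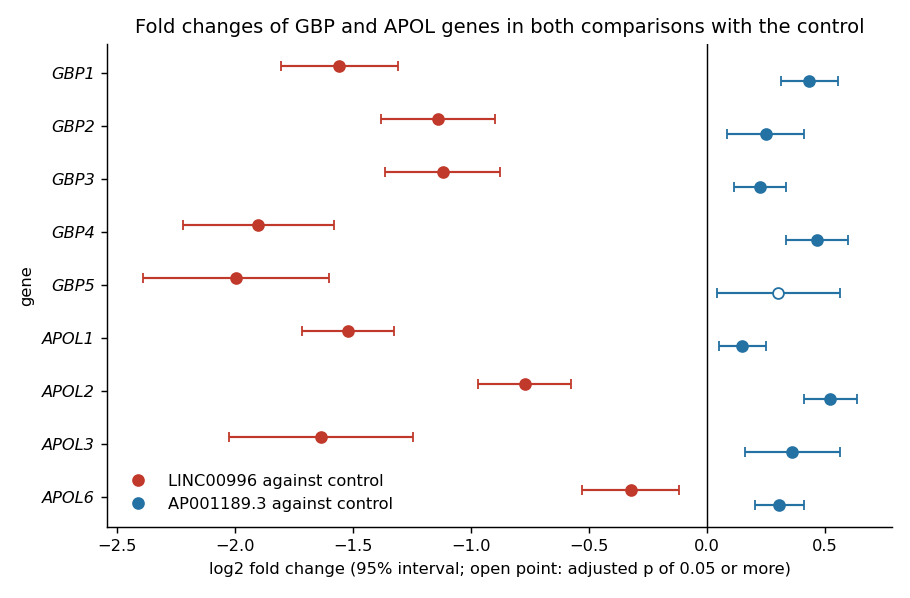
Log2 fold change (horizontal axis) of each tested GBP and APOL gene (vertical axis) for LINC00996 against control and AP001189.3 against control, with 95% intervals. Filled points passed an adjusted p of 0.05 and the open point, GBP5 with AP001189.3, did not; LINC00996 points run from -2.00 to -0.32 and AP001189.3 points from 0.15 to 0.52.

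Compared directly, LINC00996 against AP001189.3, all 9 tested members were lower in the LINC00996 group, with no overlap between libraries, against 12.1% of 16095 genes called lower and 9.38% called higher. Of the same 16095 genes, 3237 did not overlap on the lower side and 3057 on the higher side. This comparison tests the difference between the effects of the 2 plasmids, since both were measured against the same control libraries. The median was -1.68 over the members and 0.02 over all genes. GBP4 differed by 5.18-fold (log2 fold change -2.37, SE 0.16, edgeR adjusted p = 2.22e-06) and GBP5 by 4.95-fold (-2.31, SE 0.17, adjusted p = 4.85e-06). APOL3 was 4.002-fold lower (-2.00, SE 0.17, adjusted p = 1.34e-05) and GBP1 3.99-fold lower (-2.00, SE 0.12, adjusted p = 1.50e-06). The remaining 5 ranged from -1.68 for APOL1 to -0.63 for APOL6, and every one of the 9 was called whichever of the 6 libraries was left out.

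Summed over its 5 members, the GBP family fell from 90.3, 88.1 and 88.3 FPKM in the control libraries to 28.6, 32.7 and 38.5 FPKM with LINC00996, and reached 107, 118 and 117 FPKM with AP001189.3. The LINC00996 mean was 37.4% of the control mean and the AP001189.3 mean 128%. The APOL family had 228, 215 and 209 FPKM in the control libraries, 95.9, 90.4 and 99.5 FPKM with LINC00996 and 261, 264 and 253 FPKM with AP001189.3, which put the group means at 43.9% and 119% of the control. APOL1 dominated this second sum.

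The make-up of both families differed between the LINC00996 and control libraries, and for some members between the AP001189.3 and control libraries. GBP4 supplied 19.5% ± 0.651 (SD, n = 3) of the GBP sum in the control libraries, 13.8% ± 1.62 with LINC00996 and 21.0% ± 1.14 with AP001189.3, while GBP3 supplied 30.1% ± 0.477, 37.1% ± 1.86 and 27.5% ± 0.777. GBP1 went from 36.0% ± 0.136 in the control to 32.6% ± 0.176 with LINC00996 and 38.0% ± 1.72 with AP001189.3. The AP001189.3 libraries overlapped the control ones in the shares of GBP1 and GBP4, while the LINC00996 libraries did not. In the LINC00996 group GBP3 (12.3 ± 1.76 FPKM) and GBP1 (10.9 ± 1.67 FPKM) overlapped, yet GBP3 was above GBP1 in every library, the reverse of the control order. GBP2 (5.07 ± 0.594 FPKM) and GBP4 (4.62 ± 1.14 FPKM) overlapped as well, and GBP2 was above GBP4 in replicates 1 and 2 but not 3. APOL6 (15.7 ± 1.59 FPKM) lay above both GBP3 and GBP1, which it followed in the control. In the AP001189.3 group the only overlapping neighbours were APOL6 (24.3 ± 1.13 FPKM) and GBP4 (23.9 ± 2.47 FPKM). APOL1 supplied 68.03% ± 0.146 of the APOL sum in the control, 53.9% ± 1.65 with LINC00996 and 63.2% ± 0.449 with AP001189.3, and APOL6 supplied 9.06% ± 0.345, 16.5% ± 1.63 and 9.39% ± 0.509, with overlap between the control and AP001189.3 libraries for APOL6. These sums and shares are descriptions without a test.

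**Figure D3:**
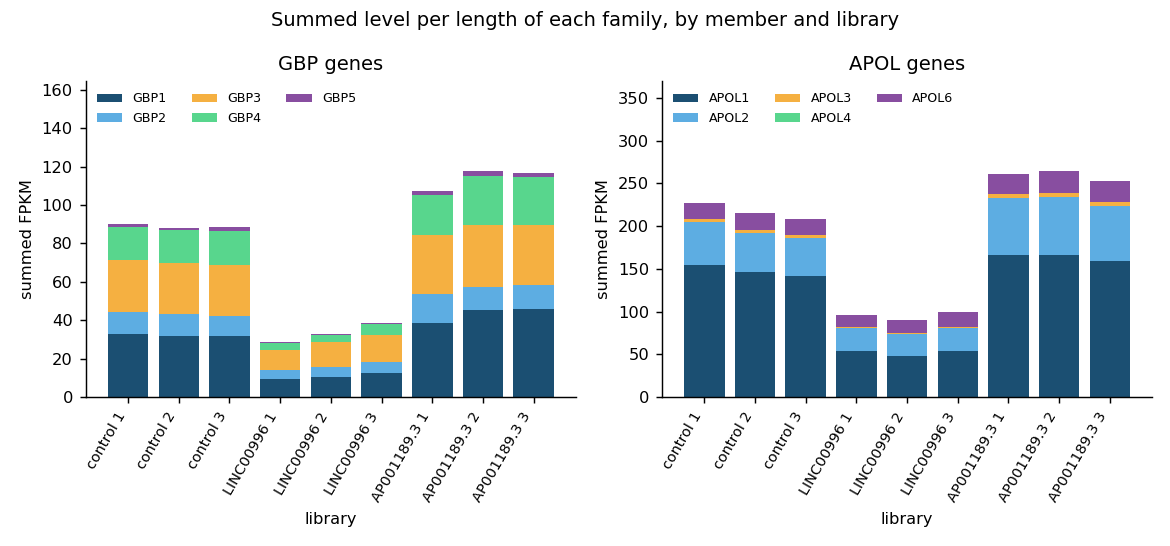
Summed FPKM (vertical axes, from 0) of the 5 GBP genes and the 5 APOL genes in each of the 9 libraries (horizontal axes), stacked by gene. The GBP sum lies between 28.6 and 38.5 in the LINC00996 libraries and between 88.1 and 90.3 in the control libraries; APOL4 is too low to be seen.

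The genes around the clusters were examined in the same fits. Over all genes tested, 11.6% were called lower and 10.7% higher with LINC00996, and 8.49% lower and 11.4% higher with AP001189.3. Within 500 kb of the GBP genes, 9 other genes were tested; with LINC00996, 2 were called lower, GBP1P1 and RBMXL1, and 0 higher, with a median log2 fold change of -0.29, and with AP001189.3 none of the 9 was called. GBP1P1, a GBP1 pseudogene, had a log2 fold change of -1.84 (SE 0.26, edgeR adjusted p = 4.74e-04) with LINC00996 and 0.41 (adjusted p = 0.107) with AP001189.3. It shares 1.09% of the 100-base windows of GBP1. Of the nearest other genes, PTGES3P1, 1.37 kb from GBP2 and lying between it and GBP1, was at -0.53 (adjusted p = 0.113), RBMXL1 at -0.63 (adjusted p = 0.00634), KYAT3 at -0.10 (adjusted p = 0.680) and GTF2B at -0.29 (adjusted p = 0.142) with LINC00996.

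Within 500 kb of the APOL genes, 12 other genes were tested, to be read beside the same all-gene shares. With LINC00996, 1 was called lower (TOM1, log2 fold change -0.48) and 4 higher (HMOX1, 0.52; MCM5, 0.75; TXN2, 0.46 and FOXRED2, 0.52), with a median of 0.11. With AP001189.3, 1 was called lower (IFT27, -0.31) and 1 higher (HMOX1, 0.34). These 6 genes were named after their values were seen. RBFOX2, which lies between APOL6 and APOL3, had 114 ± 4.02 CPM in the control and 117 ± 5.42 CPM with LINC00996 (log2 fold change 0.03, adjusted p = 0.853). MYH9, a non-muscle myosin gene next to APOL1, was at 976 ± 67.96 CPM in the control and had a log2 fold change of -0.22 (adjusted p = 0.148). MB, the gene of myoglobin, was at 0.65 (adjusted p = 0.0686) and RASD2 at -0.00 (adjusted p = 0.990).

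**Figure D4:**
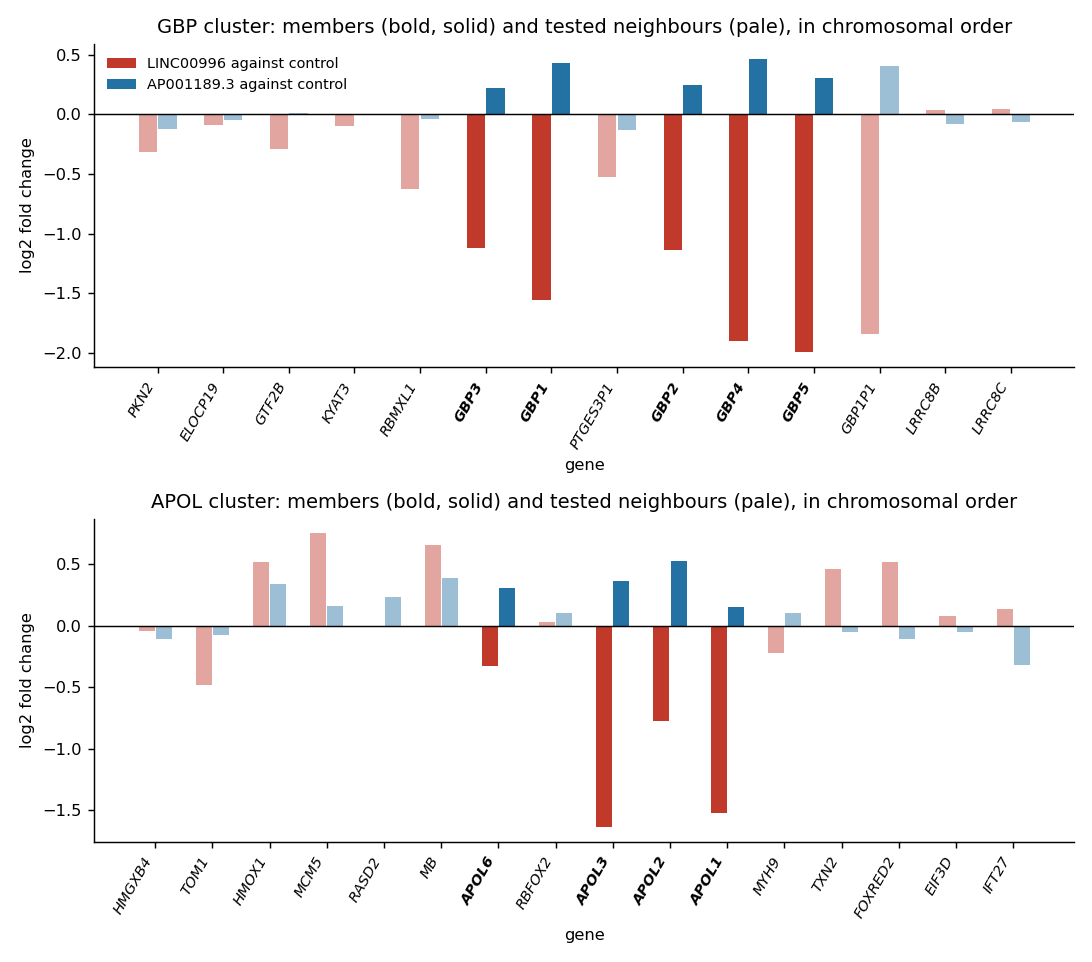
Log2 fold change (vertical axes) with LINC00996 and with AP001189.3, each against the control, for the tested genes of the GBP cluster (top) and the APOL cluster (bottom), in chromosomal order and not to scale. Members are solid and neighbours pale; GBP1P1, at -1.84 with LINC00996, is the neighbour that moved most.

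Genes that act upstream of both families were compared in the same fits. The all-gene shares were again 11.6% lower and 10.7% higher with LINC00996, and 8.49% and 11.4% with AP001189.3. Interferons bind receptors whose JAK kinases activate STAT proteins, and these with the IRF factors switch on the GBP and APOL genes. Of 11 interferon ligands and receptors, 9 were tested with LINC00996; 6 were called lower, 0 higher and 3 were not called, with a median of -0.96. IFNG, the gene of interferon gamma, had 0 counts in all 9 libraries. IFNGR2 and IFNGR1, which form the receptor for interferon gamma, fell by 0.96 (SE 0.09, edgeR adjusted p = 2.90e-05) and 0.72 (SE 0.10, adjusted p = 3.17e-04) on the log2 scale.

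The lambda interferons moved in opposite directions in the comparisons. IFNL1 went from 8.31 CPM in the control to 1.94 CPM with LINC00996 (log2 fold change -2.09, SE 0.27, edgeR adjusted p = 2.29e-04) and 18.4 CPM with AP001189.3 (1.14, adjusted p = 9.08e-07). IFNL3 was at 6.32, 2.12 and 16.0 CPM in these groups (-1.57 with adjusted p = 2.49e-04, and 1.33 with adjusted p = 0.00287). IFNL2, named after its values were seen, was at 6.55, 2.17 and 17.5 CPM (-1.60 with adjusted p = 5.04e-04, and 1.41 with adjusted p = 9.26e-08). IFNL2 and IFNL3 are near-identical copies, so the split of reads between them is uncertain. IFNB1, the gene of interferon beta, also named after its values were seen, was at 0.996, 0.350 and 2.91 CPM. It passed the filter on low counts only through its level in the AP001189.3 libraries, so these levels are a description and its test is not used. Of the other 9 ligands and receptors tested with AP001189.3, 3 were called higher, namely the lambda genes, and 3 were called lower, namely IFNGR1 (-0.16), IFNGR2 (-0.17) and IFNAR1 (-0.31).

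Among 16 genes of interferon signal transduction, 15 were tested; with LINC00996, 10 were called lower and 0 higher, with a median of -0.59, and with AP001189.3, 7 were called higher and 0 lower, with a median of 0.31. IRF1, the transcription factor that drives GBP genes, was at 186, 92.9 and 274 CPM in the control, LINC00996 and AP001189.3 groups (log2 fold changes -1.004 with edgeR adjusted p = 2.07e-05, and 0.56 with adjusted p = 2.54e-08). NLRC5, a regulator of MHC class I genes, was at -1.06 (adjusted p = 9.00e-06) and 0.16 (adjusted p = 0.0302), and BATF2, a partner of IRF1, at -0.88 (adjusted p = 7.64e-05) and 0.49 (adjusted p = 7.05e-07). STAT2 was at -0.50 (adjusted p = 0.00109) and 0.32 (adjusted p = 2.40e-05).

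**Figure D5:**
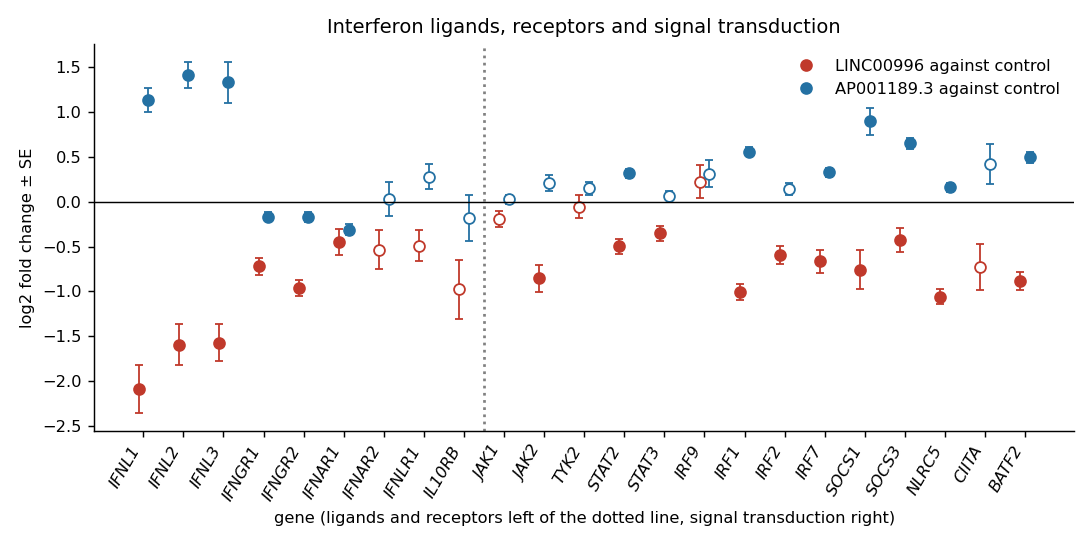
Log2 fold change with its SE (vertical axis) of interferon ligands, receptors and signal transduction genes tested in both comparisons with the control (horizontal axis). Filled points passed an adjusted p of 0.05; the 3 lambda interferons are below -1.5 with LINC00996 and above 1 with AP001189.3.

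Partners and relatives of the families came next, with the same shares of all genes called beside them (11.6% lower and 10.7% higher with LINC00996, 8.49% and 11.4% with AP001189.3). Of 9 genes of the caspase pathway that GBP proteins join, 6 were tested; with LINC00996, 3 were called lower, namely CASP1 (log2 fold change -1.37, edgeR adjusted p = 1.51e-04), IL1B (-1.12, adjusted p = 9.73e-04) and CASP4 (-0.61, adjusted p = 0.00327), and with AP001189.3, 3 were called higher (IL1B, 0.44; CASP4, 0.32 and GSDMD, 0.44, the last named after its values were seen). PYCARD, the adaptor of inflammasomes, was at 0.23 (adjusted p = 0.462). Of the 6 prenylation enzymes, which attach the lipid tail of proteins such as GBP1, GBP2 and GBP5 or process the tailed end, FNTA, a subunit of the transferases, was lower (-0.39, adjusted p = 0.0150) and ICMT, which methylates the tailed end, higher (0.53, adjusted p = 0.00234) with LINC00996, 4 were not called, and with AP001189.3 none was called.

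Other GTPases of the interferon-inducible or atlastin type were called lower in 2 of 6 tested with LINC00996: MX2, at -0.54 (edgeR adjusted p = 0.00319), and MX1, at -0.27 (adjusted p = 0.0308), both antiviral. With AP001189.3, 2 of the 6 were called higher, MX2 (0.44) and MX1 (0.28), and 1 lower, ATL2 (-0.28). Of 7 tested apolipoproteins outside the L family, 0 were called lower and 2 higher with LINC00996, APOH (0.93, adjusted p = 0.0107) and APOC1 (1.03, adjusted p = 0.0242), while with AP001189.3 none was called. Of the 5 relatives not chosen here, GBP1P1 and APOLD1 were tested; APOLD1, an endothelial gene, was at -0.95 (adjusted p = 0.00768) with LINC00996. GBP6 and APOL5 had at most 1 and 2 counts in any library.

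Marker sums of other cell types were compared beside these results. The summed level of the 8 A549 epithelial markers was 10341 to 10397 CPM in the control, 11417 to 14092 CPM with LINC00996 and 10856 to 11175 CPM with AP001189.3. Within that list AKR1B10 and NQO1 were called higher with LINC00996 (log2 fold changes 0.93 and 0.46), and CDH1, the gene of E-cadherin, lower, from 318 to 171 CPM (-0.89, edgeR adjusted p = 2.92e-05). The leukocyte sum was 10.1 to 11.6, 11.4 to 14.1 and 7.94 to 14.2 CPM. The fibroblast sum was 23.1 to 26.0, 16.2 to 18.3 and 21.2 to 24.7 CPM, with COL1A2 and DCN at 3 counts or fewer throughout. COL1A1, which made up most of it, was called lower with LINC00996, from 20.9 to 13.6 CPM (-0.62, edgeR adjusted p = 0.00635). COL3A1 had a fitted change the other way (0.51, adjusted p = 0.136). The endothelial sum was 11.6 to 13.1, 5.26 to 6.49 and 7.28 to 9.57 CPM, with VWF and KDR at 3 counts or fewer throughout and PECAM1 called lower with LINC00996 (log2 fold change -1.42, edgeR adjusted p = 2.84e-04) and with AP001189.3 (-0.80, adjusted p = 7.03e-04). The part of these sums in the GBP and APOL results was not tested.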

How the data were processed

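RNA-seq was done on 9 A549 libraries, 3 per plasmid group. According to the study's methods and the submitters' processing notes, RNA was extracted with Trizol, selected for poly(A) and sequenced as 150 bp paired reads, which the authors aligned with HISAT2 2.0.5 to GRCh38 and counted with featureCounts 1.5.0-p3; the strand setting is not given in the sources used here. The counts per gene were deposited by the authors as raw, unscaled values. The FPKM values deposited by the authors are each count divided by gene length and by library total, within a factor of 0.961 to 1.02 per library, and served only for levels per length and family sums. Depth was 15272450 to 18125447 counts per library.

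Each of 3 comparisons was tested on its 6 libraries with edgeR 4.0.16 in R 4.3.3 (filterByExpr, TMM, robust quasi-likelihood test), adjusted by Benjamini-Hochberg over all genes, and called under 0.05. Intervals are 95%. Alternatives were DESeq2 1.42.0, 2 other scalings, 2 filters, 1 fit of all 9 libraries, a replicate block, 2 thresholds and leaving out each library.

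The members and all lists were chosen with earlier results of these data known. Named genes were all 10 members, up to 4 tested genes per list with the smallest adjusted p with LINC00996, genes counted as absent, the 4 tested neighbours nearest to each cluster and the 5 genes most like each family's mean profile. Neighbours called in a direction and a few genes chosen after seeing values are named as such. Some genes that these rules pick are not reported here.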

Additional observations from a re-analysis of the deposited data

Results flagged for a closer look

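The 9 tested GBP and APOL genes are listed here because the effects of the 2 plasmids differed, by the test of LINC00996 against AP001189.3 (edgeR's quasi-likelihood test). The effect of LINC00996 minus that of AP001189.3, on the log2 scale, was -2.37 for GBP4, -2.31 for GBP5, -2.00 for GBP1, -1.39 for GBP2 and -1.35 for GBP3. In the APOL family it was -2.00 for APOL3, -1.68 for APOL1, -1.30 for APOL2 and -0.63 for APOL6. Adjusted p values ran from 4.38e-07 (APOL1) to 7.56e-04 (APOL6), and every LINC00996 library was below every AP001189.3 library for each gene, as held for 3237 of all 16095 genes tested. Groups of 3 libraries were too small for the test of single outlying samples.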

How the results depend on the processing

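Over the alternatives, no member changed direction, though 2 alternatives changed the threshold alone and left the fold changes as they were. Of 135 values for LINC00996 against control, 127 kept their side of the threshold and 8 lost it (7 of APOL6, 1 of APOL2). For LINC00996 against AP001189.3, 134 kept it and 1 lost it. For AP001189.3 against control, 116 kept it, 26 lost it and 2 gained it. At an adjusted p under 0.01, 1813, 1746 and 1766 genes were called for the comparisons L996 with PC3, RP11 with PC3 and L996 with RP11, in place of 3588, 3180 and 3452; at an adjusted p under 0.05 and a change of 1 or more on the log2 scale, they were 759, 158 and 666, and 0 members were then called higher with AP001189.3 against control, where GBP1 to GBP4, APOL1 to APOL3 and APOL6 are all under 1. With all 9 libraries in 1 fit, 437 genes and 2 members were called with AP001189.3 against control, and 3291 and 8 without LINC00996 replicate 1 (added after seeing the data). Leaving out 1 library gave 1925 to 5481, 1914 to 3598 and 1840 to 6828 genes, the highest counts for the first and last without LINC00996 replicate 1. With CPM in place of FPKM, the APOL sum with LINC00996 was 49.0% of the control and 40.8% of the AP001189.3 group; GBP1 made up 34.4%, 31.8% and 36.1% of the GBP sum and APOL1 57.7%, 41.04% and 53.4% of the APOL sum in the control, LINC00996 and AP001189.3 groups. Counts were too few to test APOL4, and among the tested members GBP5 had the fewest, 43 to 290 per library.

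Whether libraries with the same replicate number were handled together is not given in the sources used here. Same-numbered libraries of the groups correlated at 0.149, 0.0212 and 0.0858 for LINC00996 and control, 0.0589, -0.0204 and 0.0320 for AP001189.3 and control and 0.0816, 0.00455 and 0.0525 for LINC00996 and AP001189.3. Libraries with different numbers correlated at -0.123 to 0.0449. In each comparison, libraries numbered 1 and 3 correlated best with their own number, and those numbered 2 did not. With the replicate block, 4500, 3466 and 3772 genes were called, in place of 3588, 3180 and 3452. The block left 9, 8 and 9 members called, as without it. A batch shared by libraries of the same number was not tested.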

Other observations

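Over the 9 libraries, genes whose log2 CPM, centred on the control mean, lay close to the mean GBP profile included WARS (root mean square difference 0.0632), TNFSF10 (0.0951), RASGRP3 (0.106) and PLAT (0.121), among 14618 genes that averaged 1 CPM or more. The GBP members themselves lay at 0.0783 (GBP1) to 0.289 (GBP5) from that profile. WARS went from 367 CPM in the control to 124 CPM with LINC00996 and 456 CPM with AP001189.3, and TNFSF10 from 151 to 48.8 and 188 CPM. Close to the mean APOL profile were CDK18 (0.0723), KLF4 (0.0795), PLAUR (0.0879) and SDC4 (0.0960), while the tested APOL members lay at 0.211 (APOL2) to 0.438 (APOL6), farther than these 4. PLAUR went from 266 CPM in the control to 131 CPM with LINC00996 and 329 CPM with AP001189.3.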
